A study of Mus musculus with 7 samples.

Results

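TGF-beta and activin pathway genes were followed in macrophages sorted from the injured sciatic nerve. The set held 9 genes, chosen by name: the ligand genes Tgfb1 and Inhba, the receptor genes Tgfbr1, Tgfbr2 and Acvrl1, the intracellular mediators and regulators Smad3, Smad7 and Skil, and the secreted target Tgfbi. All 9 were among the 23361 genes quantified in each library, and all 9 passed the expression filter that kept 12858 genes for testing. Wild-type BALB/cJ mice, which are inbred, had the left sciatic nerve transected and repaired at once by suturing both stumps into a conduit, and every group shared this injury. Cells were sorted from the tissue that bridged the stumps, as F4/80+, CD14+, CD11b+ and CD16/32+ cells, after exclusion of cells with markers of other lineages, among them Ly6G, Siglec F, CD3e, Ter119 and Thy1.2. RNASeq libraries came from day 5 (n = 3), day 14 (n = 2) and day 28 (n = 2) after repair, with no uninjured nerve among them, so day 5 was the earliest reference. Sex and age of these mice were not given in the sources used here. Neither the labels nor the methods say whether a library stands for 1 mouse, so p-values measure the spread between libraries, which may in part be technical.

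TGF-beta is secreted in a latent form, held by its own propeptide and anchored to binding proteins, and has to be activated by integrins, proteases or thrombospondin. The active ligand binds the type II receptor TGFBR2, which recruits and phosphorylates the type I receptor TGFBR1, and this receptor phosphorylates SMAD2 and SMAD3. Activins, dimers of inhibin beta chains, reach the same SMADs through their own receptors, whereas ALK1, the product of Acvrl1, signals to SMAD1 and SMAD5. In macrophages TGF-beta is known as a brake on inflammatory genes and as a requirement of the microglial program.

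The libraries held 18027190 to 35247116 fragments in genes, 1 fragment being 1 single-end read, and 13209 to 14047 genes per library were above the floor of 3 fragments. The 9 genes were covered by 120 to 22279 fragments per library. The labelled cell type was checked against 10 macrophage genes, the sort markers included, which summed to 16580 to 22630 FPKM in every library and had no member at or under 3 fragments. Lyz2 alone was at 10680 to 18380 FPKM, so the sum mostly follows this gene. Between days 5 and 28, 3 of the 10 fell by the edgeR test described below. These were the sort marker genes Emr1 (log2 fold change -1.007, adjusted p = 0.0065) and Cd14 (-0.762, 0.0145), and Aif1 (-1.011, 0.00515). The macrophage genes were thus not constant over these days. Transcripts listed as markers of cell types that the sort excluded were present. Neutrophil markers summed to 239 to 275 FPKM at day 5, 495 to 516 at day 14 and 103 to 252 at day 28, nearly all of it from S100a8 and S100a9, which monocytes also express, and Elane had no fragments. Fibroblast markers summed to 28.8 to 74.1 FPKM at day 5, 81.2 to 223 at day 14 and 35.6 to 57.0 at day 28, and the highest sum was that of day 14 replicate 1. Endothelial markers summed to 16.4 to 27.9, 11.4 to 15.1 and 7.52 to 11.5 FPKM at days 5, 14 and 28, and of the 6 tested, Pecam1 and Kdr fell and Vwf and Tek rose between days 5 and 28. The red cell gene Hba-a1 was at 26.4 to 41.0 FPKM at day 5, 6.95 to 46.3 at day 14 and 0.0449 to 9.56 at day 28, while Hbb-b1, the Schwann cell gene Gfap and the eosinophil gene Epx had 3 fragments or fewer in every library. Mbp, the only Schwann cell marker tested, was at 10.27 to 19.77 FPKM. Between days 5 and 28 Mbp rose (log2 fold change 0.749, adjusted p = 0.0296, edgeR). Siglec5, on the eosinophil and mast cell list and low at 0.4134 to 1.913 FPKM, rose too (1.85, adjusted p = 0.0105, edgeR). Of 4 dendritic cell markers tested, only Ccr7 rose (1.425, adjusted p = 0.04, edgeR). The B cell gene Cd79b was at 4.376 to 10.31 FPKM. The part of other cells in the values below was not tested, and in sorted bulk RNA fewer cells of a type and less RNA per cell cannot be told apart.

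The 250 bases before the transcript start were looked up in RefSeq (GRCm38.p6, the mm10 assembly of the deposited values). The look-up left out Smad7, and windows of 6 of the 9 genes were used. Windows are shown for the 3 genes that changed between days 5 and 28, since their mRNA levels are what the results turn on. The Tgfb1 window is chr7:25686752-25687001, that of Tgfbr1 (the first of its 2 windows) is chr4:47352972-47353221, and that of Tgfbi is chr13:56609336-56609522, which stops short of the annotated gene after 187 bases. All 3 lie on the plus strand. Capitals mark 5-base motifs bound by SMAD proteins, CAGAC or its reverse complement GTCTG, and the GC-rich GGCGC or GCGCC, which may overlap.
Tgfb1: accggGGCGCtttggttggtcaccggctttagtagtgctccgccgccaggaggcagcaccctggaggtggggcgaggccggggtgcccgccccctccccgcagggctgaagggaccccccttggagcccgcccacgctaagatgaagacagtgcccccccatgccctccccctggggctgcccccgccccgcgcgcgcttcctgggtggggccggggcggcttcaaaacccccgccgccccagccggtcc
Tgfbr1: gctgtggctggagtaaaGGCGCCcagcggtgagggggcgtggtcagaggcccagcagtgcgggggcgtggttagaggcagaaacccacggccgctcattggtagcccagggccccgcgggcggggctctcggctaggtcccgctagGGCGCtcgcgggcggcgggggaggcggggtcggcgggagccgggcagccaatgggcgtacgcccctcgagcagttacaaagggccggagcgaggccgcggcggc
Tgfbi: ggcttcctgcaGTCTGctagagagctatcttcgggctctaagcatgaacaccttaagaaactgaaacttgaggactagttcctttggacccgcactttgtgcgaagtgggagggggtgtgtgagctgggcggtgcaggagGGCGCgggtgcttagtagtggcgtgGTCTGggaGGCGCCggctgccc
The Tgfbi window held 2 matches to CAGAC and 3 to GGCGC, with a pair of the latter overlapping. The Tgfbr1 window held 3 matches to GGCGC, with a pair overlapping, and that of Tgfb1 held 1. CAGAC was found in 42.2% and GGCGC in 32.0% of 32851 windows of 250 bases, so either match is common. The AP-1 motif TGAGTCA or TGACTCA, found in 4.46% of windows, had no match in these 3. A match of letters describes the window and is not evidence of binding.

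By FPKM, which adjusts for transcript length and library size, the genes differed widely in level. Tgfb1 averaged 210.3 FPKM over the 7 libraries and Tgfbi 196.5 FPKM, each higher than about 98% of all genes in the file (percentiles 98.2 and 98.1). Tgfbr2 followed at 78.4 FPKM, Skil at 45.2, Acvrl1 at 26.7, Tgfbr1 at 25.8, Inhba at 20.2, Smad3 at 7.82 and Smad7 at 4.84 FPKM. In this order the libraries of Tgfbi did not overlap with those of Tgfbr2, nor those of Skil with those of Acvrl1, while all other neighbours overlapped. Inhba ranged most over the time course, with its highest library 8.94 times its lowest, and Acvrl1 and Tgfbi least, with 1.47 and 1.48 times.

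**Figure D1:**
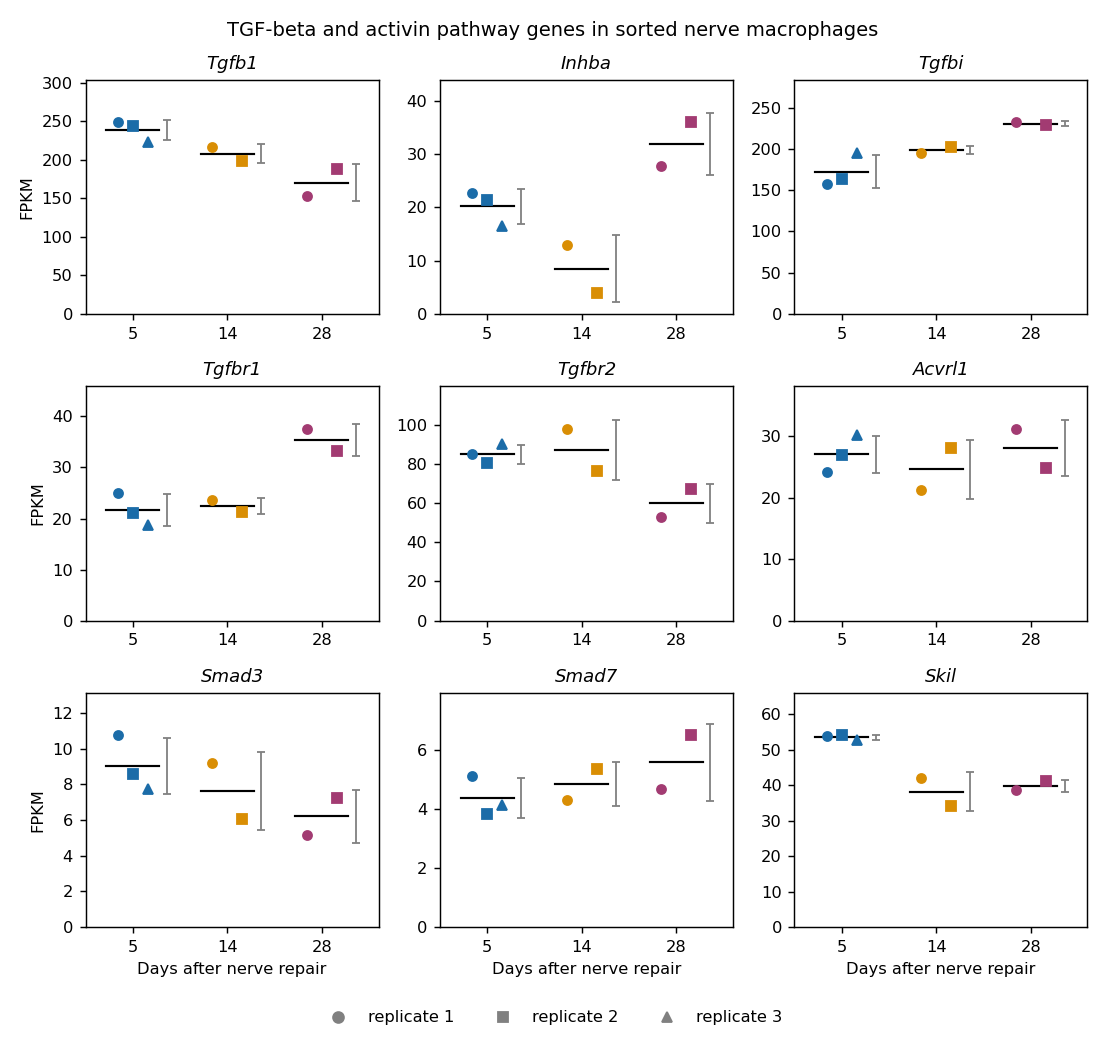
FPKM (vertical axes, each from 0) of the 9 genes by day after nerve repair. Each symbol is 1 library, horizontal lines are means and grey bars are SD (day 5 n = 3, days 14 and 28 n = 2). Tgfb1 was lowest and Tgfbr1 and Tgfbi were highest at day 28, and the Inhba libraries of day 14, at 12.9 and 4.02 FPKM, lay below all others.

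Changes were tested with edgeR's quasi-likelihood test on fragments, with Benjamini-Hochberg adjustment over the 12858 genes, and a gene was called at an adjusted p under 0.05. By day 28, 3 of the 9 genes had changed from day 5: Tgfbr1 and Tgfbi rose and Tgfb1 fell. Of all genes tested, 15.2% were called in this comparison. None of the 9 was called between days 5 and 14, where 4.78% of all genes were, or between days 14 and 28, where 0.0622% were. At an unadjusted p under 0.05, 2 of the 9 passed between days 5 and 14 (3083 of the 12858 genes did) and 3 between days 14 and 28 (1570 of the 12858), and DESeq2 called 1 gene in each step, Skil in the first and Tgfbr1 in the second. The median log2 fold change of the 9 was 0.065 between days 5 and 28, beside 0.033 over all genes, with members on both sides of 0. Libraries of days 5 and 28 did not overlap for 7 of the 9 genes, 3 higher and 4 lower at day 28, beside 51.5% of all genes. The count was 4 of 9 for days 5 and 14 (43.2% of all genes) and 5 of 9 for days 14 and 28 (39%). The day 5 libraries serve both comparisons with day 5, and the day 14 libraries both steps.

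**Figure D2:**
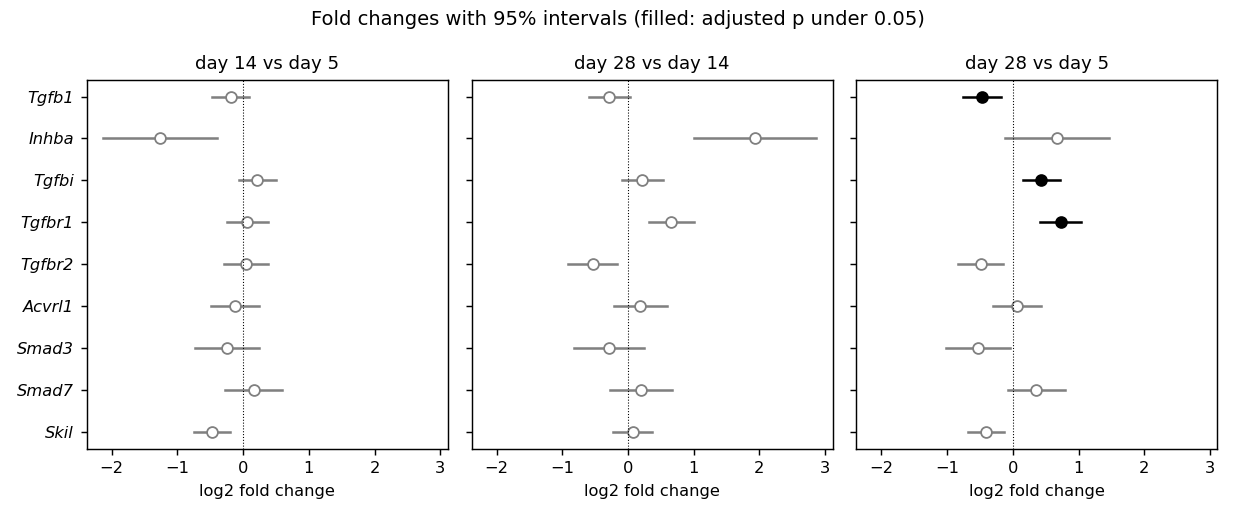
Log2 fold changes (horizontal axis) of the 9 genes in each of the 3 comparisons, from the edgeR fit on 7 libraries. Bars are 95% intervals and filled symbols have an adjusted p under 0.05. Filled symbols appear between days 5 and 28 only, for Tgfb1 (-0.47), Tgfbi (0.44) and Tgfbr1 (0.73), and Inhba has the widest intervals.

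Tgfb1, which encodes the TGF-beta isoform of most immune cells (chromosome 7, 25687002 to 25705077, plus strand, protein coding), was the most abundant of the 9. Its expression was 249, 243.5 and 223 FPKM in the day 5 libraries, 217 and 199 FPKM in those of day 14, and 153 and 187.5 FPKM in those of day 28. The 3 days did not overlap, and the means were 239 ± 13.4 (SD, n = 3), 208 ± 12.7 (n = 2) and 170 ± 24.2 FPKM (n = 2). From day 5 to day 28 Tgfb1 fell, with a log2 fold change of -0.47 (SE 0.13, 95% interval -0.76 to -0.18), to 0.721 times its level, with an adjusted p of 0.0378 from edgeR. The steps gave log2 fold changes of -0.19 (adjusted p = 0.399) and -0.28 (adjusted p = 0.454), neither past the threshold. The call was lost without day 5 replicate 1 (adjusted p = 0.117), replicate 2 (0.118) or replicate 3 (0.0760), and without day 28 replicate 1 (0.208), all from the same edgeR test. Platelets also store TGF-beta 1. Platelet and erythroid markers summed to 1522 to 2148 FPKM at day 5, 417 to 568 at day 14 and 275 to 342 at day 28, a sum dominated by Pf4, which macrophages also express. Pf4 and Ppbp both fell in both comparisons with day 5, Ppbp from 31.2, 24.4 and 53.9 FPKM at day 5 to 2.70 and 6.79 at day 14 and 9.83 and 7.39 at day 28 (adjusted p = 0.0157 and 0.0119, edgeR). The platelet integrin Itga2b was at 0.152 to 0.393 FPKM in all libraries, and Gp9 at 0 to 1.02 FPKM. The part of platelet RNA in the Tgfb1 values was not tested.

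Inhba encodes the inhibin beta A chain, the subunit of activin A (chromosome 13, 16011851 to 16031621, plus strand, protein coding). Its expression was 22.6, 21.4 and 16.5 FPKM at day 5, 12.9 and 4.02 FPKM at day 14, and 27.7 and 36 FPKM at day 28. Day 14 lay below day 5 and day 28 above it, with no overlap between any of the 3 days. The log2 fold change was -1.26 between days 5 and 14 (SE 0.39, 95% interval -2.13 to -0.39, adjusted p = 0.0886) and 1.93 between days 14 and 28 (SE 0.41, 95% interval 1 to 2.87, adjusted p = 0.110, edgeR). The steps themselves were compared by the contrast of the second with the first, which was 3.19 on the log2 scale (SE 0.74, adjusted p = 0.177 from edgeR), in which 0.0156% of all genes were called. For days 5 and 28 the log2 fold change was 0.67 (SE 0.35, 95% interval -0.12 to 1.46, adjusted p = 0.227). The spread at day 14 decided these values. Day 14 replicate 1 held 310 fragments of Inhba and replicate 2 held 120, in libraries of similar depth. Without replicate 1, the log2 fold changes of the steps were -2.31 (adjusted p = 3.18e-04) and 2.98 (adjusted p = 0.00346), and their difference was 5.29 (adjusted p = 0.00138), where the lone day 14 library was assumed to vary like the others. Without replicate 2, the first step was -0.64 (adjusted p = 0.195), the second 1.31 (adjusted p = 0.00909) and their difference 1.95 (adjusted p = 0.0572), so the size of the first step rested on day 14 replicate 2. In the comparison of days 5 and 28, Inhba had an adjusted p of 0.0134 without day 14 replicate 1 and 0.0137 without replicate 2, and 0.0131 in a fit on the libraries of both days alone. Day 14 replicate 1 was also the library with the highest sum of fibroblast markers.

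Among the receptors, the genes for both chains of the TGF-beta receptor had different courses. Tgfbr1, the type I receptor kinase (chromosome 4, 47353222 to 47414931, plus strand, protein coding), was expressed at 24.9, 21.1 and 18.8 FPKM at day 5, at 23.6 and 21.4 FPKM at day 14, and at 37.6 and 33.2 FPKM at day 28. Days 5 and 14 overlapped, and both day 28 libraries were above all others. At day 28 Tgfbr1 was 1.65-fold higher than at day 5 (log2 fold change 0.73, SE 0.14, 95% interval 0.42 to 1.04, adjusted p = 0.00991 from edgeR), the lowest adjusted p among the 9 genes. The interval was -0.25 to 0.38 for the first step (log2 fold change 0.06, adjusted p = 0.817) and 0.32 to 1.01 for the second (0.66, adjusted p = 0.129, and 0.0113 with DESeq2). Leaving out day 28 replicate 1 ended the call between days 5 and 28 (log2 fold change 0.63, adjusted p = 0.0846), and no other single library did.

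Tgfbr2, the type II receptor that binds the ligand first (chromosome 9, 116084293 to 116175360, minus strand, protein coding), was expressed at 84.8, 80.3 and 89.9 FPKM at day 5, at 98.0 and 76.4 FPKM at day 14, and at 52.8 and 66.9 FPKM at day 28. Both day 28 libraries were below the other 5. Its log2 fold change between days 5 and 28 was -0.49 (SE 0.15, 95% interval -0.83 to -0.15), which missed the threshold with edgeR (adjusted p = 0.0585) and passed it with DESeq2 (0.0155). It also passed in edgeR fits without day 14 replicate 1 (adjusted p = 0.0200) or replicate 2 (0.0213), and without replicate 2 so did the step from day 14 to 28 (log2 fold change -0.70, adjusted p = 0.0381). Per transcript length, Tgfbr2 was above Tgfbr1 in every library. The FPKM of Tgfbr1 divided by that of Tgfbr2, a ratio chosen after the values were seen, was 0.294, 0.263 and 0.209 at day 5, 0.241 and 0.279 at day 14, and 0.712 and 0.497 at day 28. Its day 28 values did not overlap with the other days (exact permutation test, two-sided, p = 0.2 against day 5 and p = 0.333 against day 14, the smallest values these numbers of libraries allow).

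**Figure D3:**
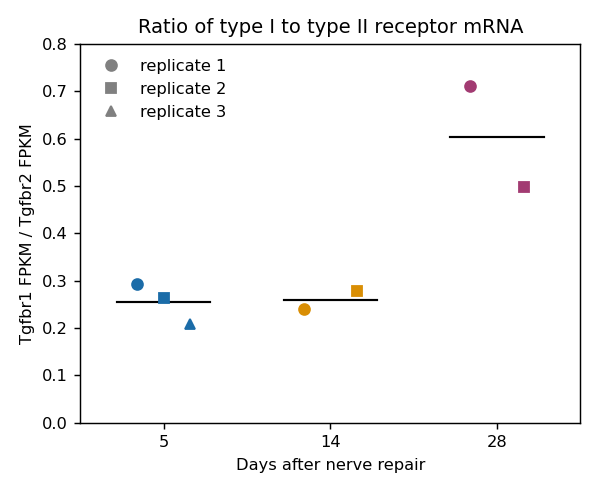
FPKM of Tgfbr1 divided by FPKM of Tgfbr2 (vertical axis, from 0) by day after nerve repair. Each symbol is 1 library and horizontal lines are means (day 5 n = 3, days 14 and 28 n = 2). Day 28 libraries lie at 0.497 and 0.712 and the 5 earlier libraries between 0.209 and 0.294.

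Acvrl1, the type I receptor ALK1 best known from endothelium (chromosome 15, 101128522 to 101145336, plus strand, protein coding), stayed within a narrow range. Its expression was 24.2, 26.9 and 30.2 FPKM at day 5, 21.3 and 28.0 FPKM at day 14, and 31.3 and 24.8 FPKM at day 28, with overlap between all days. The log2 fold change between days 5 and 28 was 0.065 (SE 0.16, adjusted p = 0.822 from edgeR). Its 95% interval of -0.30 to 0.43 does not cover a doubling or a halving. Over the same days the summed endothelial markers went from 16.4 to 27.9 FPKM down to 7.52 to 11.5 FPKM, a sum that follows Pecam1 and Kdr, which fell, while Vwf and Tek, both low, rose. The gene overlaps the exons of Gm16031, annotated on the opposite strand, and the deposited values do not separate antisense reads from those of Acvrl1.

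Of the intracellular genes, edgeR called none in any comparison at these settings, while DESeq2 called Skil in both comparisons with day 5. Smad3, the receptor-activated mediator (chromosome 9, 63646767 to 63757994, minus strand, protein coding), was expressed at 10.7, 8.59 and 7.73 FPKM at day 5, at 9.16 and 6.06 FPKM at day 14, and at 5.17 and 7.25 FPKM at day 28. Both day 28 libraries were below all day 5 libraries. The log2 fold change was -0.53 (SE 0.22, 95% interval -1.02 to -0.04, adjusted p = 0.130 from edgeR). Smad7, the inhibitory SMAD that is itself induced by the pathway (protein coding), was the least abundant, at 5.12, 3.84 and 4.13 FPKM at day 5, 4.31 and 5.36 FPKM at day 14, and 4.65 and 6.49 FPKM at day 28. All 3 days overlapped, and the log2 fold change between days 5 and 28 was 0.36 (SE 0.19, 95% interval -0.07 to 0.79, adjusted p = 0.231).

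Skil encodes SnoN, a repressor of SMAD-driven transcription (chromosome 3, 31095058 to 31122577, plus strand, protein coding). Its expression was 53.7, 54.1 and 52.6 FPKM at day 5, 42.0 and 34.2 FPKM at day 14, and 38.6 and 41.1 FPKM at day 28. The day 5 libraries lay close together (coefficient of variation 1.43%) and above the other 4, which overlapped with each other. The log2 fold change was -0.48 between days 5 and 14 (SE 0.12, 95% interval -0.76 to -0.21, adjusted p = 0.0558) and -0.41 between days 5 and 28 (SE 0.12, 95% interval -0.69 to -0.14, adjusted p = 0.0502), both short of the threshold with edgeR. The comparison of days 5 and 28 passed it with RLE size factors (0.0492), the authors' own scaling (0.0481) or only the libraries of these days (0.0169) in edgeR, and with limma on log2(FPKM + 1) (0.0406). DESeq2 called both (adjusted p = 0.00655 and 0.0141). Between days 14 and 28 the log2 fold change was 0.07 (95% interval -0.23 to 0.37). Without day 14 replicate 1, edgeR called both comparisons with day 5 (adjusted p = 0.0114 for day 14 and 0.0163 for day 28), and without day 14 replicate 2 that of day 28 (0.0170).

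Tgfbi, named for its induction by TGF-beta, encodes a secreted matrix protein that binds collagen and integrins (chromosome 13, 56609523 to 56639562, plus strand, protein coding). Its expression was 158, 164 and 195 FPKM at day 5, 195.5 and 202 FPKM at day 14, and 233 and 229 FPKM at day 28. The day 14 libraries lay just above the highest day 5 library, and those of day 28 above all others. Tgfbi rose 1.35-fold between days 5 and 28 (log2 fold change 0.44, SE 0.13, 95% interval 0.15 to 0.72, adjusted p = 0.0459 from edgeR), in 2 steps of 0.22 each that were not past the threshold (adjusted p = 0.328 and 0.559). The call sat at the edge of the threshold. Other library scalings gave adjusted p-values of 0.0528 (RLE size factors) and 0.0518 (the authors' own scaling), and it was lost without day 5 replicate 1 (0.150), day 5 replicate 2 (0.157), day 28 replicate 1 (0.180) or day 28 replicate 2 (0.125).

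Genes whose course over the 7 libraries was most like that of a called gene were listed as a description, by Pearson correlation of log2(FPKM + 1) among 7555 genes. For Tgfb1 they were Map7d1, Ethe1 and Fbrs (each 0.991). Tgfbr1 was followed by Eef1g (0.986), a translation elongation factor subunit, by Met (0.963), the receptor of hepatocyte growth factor, and by Cgref1 (0.959). Tgfbi was followed by Rbl1 (0.981), a pocket protein of the retinoblastoma family, Sap25 (0.972) and Prkci (0.969), an atypical protein kinase C. With 7 libraries on 3 days, these values reflect the shared days, and the points share library depth and composition.

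To place the 9 genes, 94 other genes of the pathway were examined, of which 81 were tested. Their lists were chosen with earlier results of these data known. The shares called, here and in the lists below, therefore describe the lists and are no test against all genes. Between days 5 and 14, 9 of them rose and 1 fell (12.3%, beside 4.78% of all genes), and between days 5 and 28, 13 rose and 7 fell, that is 24.7% beside 15.2% of all genes. None was called between days 14 and 28 with edgeR, while DESeq2 called 4. The median log2 fold change of the 81 was 0.03 between days 5 and 28, as over all genes.

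Of 13 tested ligand and binding protein genes, 3 that bind latent TGF-beta rose between days 5 and 28. The share called was 23.1%, beside 15.2% of all genes. Lrrc32, which encodes GARP, the cell surface docking protein of latent TGF-beta, was expressed at 1.48, 1.01 and 0.505 FPKM at day 5, 1.77 and 3.14 FPKM at day 14, and 13.6 and 14.2 FPKM at day 28. Its log2 fold change at day 28 relative to day 5 was 3.81 (SE 0.36, edgeR adjusted p = 7.06e-04). Ltbp3, which binds latent TGF-beta in the matrix, was expressed at 5.15, 4.78 and 3.79 FPKM at day 5, 9.48 and 18.7 FPKM at day 14, and 19.3 and 21.1 FPKM at day 28. Its log2 fold change was 1.64 between days 5 and 14 (adjusted p = 0.0158) and 2.15 between days 5 and 28 (adjusted p = 0.00155). Ltbp4 was called in both comparisons from few reads, with 0, 0 and 1 fragments at day 5, 68 and 18 at day 14, and 56 and 15 at day 28. The other 10 ligand and binding protein genes tested were not called. The calls of Lrrc32 and Ltbp3 at day 28 held on leaving out any single library. That of Ltbp4 was lost without day 5 replicate 1 or day 28 replicate 1 (adjusted p up to 0.0888), and both Ltbp calls at day 14 on leaving out any 1 of the day 5 libraries (up to 0.0691).

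Of 10 tested genes for proteins that release or activate the ligand, 3 fell between days 5 and 28. These made up 30%, beside 15.2% of all genes called. Thrombospondin 1 (Thbs1) was at 337, 234 and 290 FPKM at day 5, 198 and 52.4 FPKM at day 14, and 74.3 and 97.0 FPKM at day 28, so that the day 14 libraries lay far apart. Its log2 fold change was -1.73 (SE 0.45, adjusted p = 0.0331). The protease genes Mmp9 (log2 fold change -1.69, adjusted p = 0.00215) and Mmp14 (-0.77, adjusted p = 0.0146) fell as well. Plaur, the urokinase receptor, fell between days 5 and 14 (-0.71, adjusted p = 0.0253, edgeR). The call of Mmp9 held on leaving out any single library. That of Thbs1 was lost on leaving out any 1 library of day 5 or 28 (adjusted p up to 0.213), that of Mmp14 without day 5 replicate 1 or 2 or day 28 replicate 1 (up to 0.113), and that of Plaur on leaving out any 1 day 5 library or day 14 replicate 2 (up to 0.0875).

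**Figure D4:**
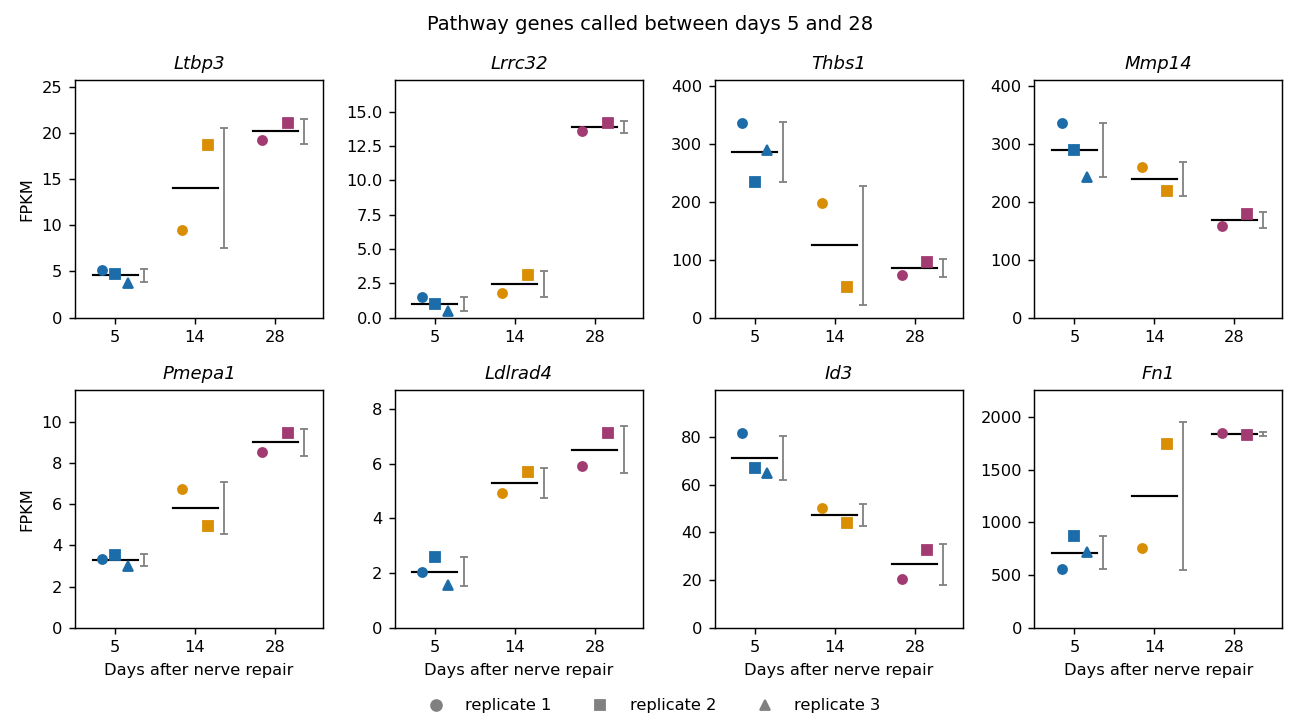
FPKM (vertical axes, each from 0) of 8 further pathway genes by day after nerve repair, all called between days 5 and 28. Each symbol is 1 library, horizontal lines are means and grey bars are SD (day 5 n = 3, days 14 and 28 n = 2). Lrrc32 stays at 3.14 FPKM or less until day 14 and is at 13.6 and 14.2 FPKM at day 28, and Thbs1 and Ltbp3 differ widely between the day 14 libraries.

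Receptors and co-receptors other than the 3 above gave 2 calls among 11 tested genes between days 5 and 28, or 18.2%, a share near the 15.2% of all genes. Acvr1, the type I receptor ALK2, was at 6.02, 5.81 and 5.78 FPKM at day 5, 7.53 and 8.79 FPKM at day 14, and 9.78 and 8.99 FPKM at day 28 (log2 fold change 0.69, adjusted p = 0.0106). Bambi, a pseudoreceptor without a kinase domain, was low, with means of 0.833, 1.85 and 1.67 FPKM, and rose in both comparisons with day 5 (log2 fold changes 1.17 and 1.02, adjusted p = 0.0326 and 0.0216, edgeR). Acvr1 was no longer called without day 28 replicate 1 (adjusted p = 0.0827). Bambi lost its day 28 call without day 5 replicate 1 or 2 or either day 28 library (up to 0.117), and its day 14 call on leaving out any 1 library but day 14 replicate 1 (up to 0.159). None of the 5 other SMAD genes tested was called.

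Of 17 regulators of the signal, 2 rose and 2 fell between days 5 and 28, or 23.5% beside 15.2% of all genes. Both that rose encode membrane proteins that bind SMAD2 and SMAD3 and restrain the signal. Pmepa1 was at 3.37, 3.53 and 2.99 FPKM at day 5, 6.74 and 4.94 FPKM at day 14, and 8.57 and 9.49 FPKM at day 28 (log2 fold change 1.47, SE 0.15, adjusted p = 0.00101). Ldlrad4 was at 2.02, 2.58 and 1.55 FPKM at day 5, 4.92 and 5.69 FPKM at day 14, and 5.90 and 7.14 FPKM at day 28 (1.68, SE 0.23, adjusted p = 0.00260). Both were also called between days 5 and 14 (adjusted p = 0.0249 and 0.0184, edgeR). Dab2, an endocytic adaptor (log2 fold change -0.96, adjusted p = 0.00937), and Wwp1, a ubiquitin ligase (-0.58, adjusted p = 0.0359), fell. The day 28 calls of Pmepa1 and Ldlrad4 held on leaving out any single library. Their day 14 calls were lost without day 5 replicate 1 or 3 and, for Pmepa1, replicate 2 (adjusted p up to 0.0877). Dab2 was lost without day 28 replicate 1 (0.0867) and Wwp1 on leaving out any 1 library of day 5 or 28 (up to 0.173).

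Among 18 genes known as targets of TGF-beta family signals, 4 were called between days 5 and 28 (22.2%, beside 15.2% of all genes). Their directions were mixed. Bhlhe40, a transcriptional repressor (log2 fold change 0.87, adjusted p = 0.00955), and Fn1, fibronectin (1.38, adjusted p = 0.0185), rose. Fn1 was at 555, 867 and 713 FPKM at day 5, 752.5 and 1742 FPKM at day 14, and 1849 and 1825 FPKM at day 28. Id3, a target of the SMAD1 and SMAD5 branch, was at 81.8, 66.9 and 64.7 FPKM at day 5, 50.4 and 44.1 FPKM at day 14, and 20.5 and 32.7 FPKM at day 28, without overlap, and fell by 1.42 on the log2 scale (SE 0.20, adjusted p = 0.00332). Cdkn1a, the cell cycle inhibitor p21, fell by 0.78 (adjusted p = 0.0171, edgeR). Col1a2, a collagen gene that is also on the list of fibroblast markers, rose between days 5 and 14 (1.86, adjusted p = 0.0350), with 48.1 FPKM in day 14 replicate 1 and 18.4 FPKM in replicate 2. The Id3 call held on leaving out any single library. That of Bhlhe40 was lost without day 28 replicate 1 (0.0860), that of Fn1 without day 5 replicate 1 or 3 or either day 28 library (up to 0.111), that of Cdkn1a on leaving out any 1 day 5 library or day 28 replicate 1 (up to 0.134), and that of Col1a2 on leaving out any 1 library of day 5 or 28 (up to 0.115).

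Genes of the microglial program were examined because microglia depend on TGF-beta, and 4 of 7 tested rose between days 5 and 28, or 57.1% beside 15.2% of all genes. Cx3cr1, the fractalkine receptor, was at 4.47, 7.15 and 3.56 FPKM at day 5, 12.6 and 25.3 FPKM at day 14, and 44.1 and 36.3 FPKM at day 28 (log2 fold change 3.01, SE 0.32, adjusted p = 0.00107). Gpr34, a lysophosphatidylserine receptor (1.90, adjusted p = 8.19e-04), and Olfml3, a secreted matrix protein (1.76, adjusted p = 0.00163), rose as well. Cx3cr1, Gpr34 and Olfml3 were also called between days 5 and 14 (adjusted p = 0.0189, 0.00640 and 0.0366, edgeR). The day 28 calls of Cx3cr1, Gpr34 and Olfml3, and the day 14 call of Gpr34, held on leaving out any single library. Cx3cr1 was lost at day 14 without day 5 replicate 1 or 3 (adjusted p up to 0.0717), and Olfml3 at day 14 on leaving out any 1 library but day 14 replicate 1 (up to 0.188).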

How the data were processed

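RNASeq was analysed in 7 libraries of polyA+ RNA from sorted macrophages. Per the methods and submitters' notes, the authors used cutadapt 1.8 to trim the single-end reads and TopHat2 2.0.13 to align them to mm10, and quantified genes with Cuffdiff 2.2.1. The authors deposited expected counts (fragments before scaling), a scaled signal (the same fragments times 1 factor per library) and FPKM. The handling of strand and of reads with several matches is not given in the sources used here, so antisense partners and paralogs are uncertain. All columns were mapped to a library by name, and the libraries had 18027190 to 35247116 fragments. The floor of 3 fragments covers counting error only.

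These counts were first rounded (1.36% of the non-zero values were not whole at a tolerance of 0.001, none of the 9 genes' among them) and tested in edgeR 4.0.16 (R 4.3.3): TMM, filterByExpr by day, the quasi-likelihood test, and p-values adjusted after Benjamini-Hochberg over 12858 genes per contrast, with all 7 libraries in 1 model of the day. SE are approximate, taken from the fold change and F. Alternatives were DESeq2 1.42.0, RLE and Cuffdiff scaling, no filter, limma 3.58.1 on log2(FPKM + 1) and log2(FPKM + 0.1), only the libraries compared, the replicate block, each library left out, an adjusted p under 0.01, and the study's stringent rule (2-fold and a mean FPKM of at least 5). Scripts were tested on simulated data.

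The members and gene lists were chosen with earlier results of these data known. Named were all members and, per list, the called genes, at most 6 with the lowest adjusted p. The neutrophil marker Ly6g was not analysed here, and some listed genes are counted but not reported by name here. Gene coordinates are from GENCODE M21 on GRCm38, and promoter windows from RefSeq. Permutation tests used scipy 1.17.1.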

Additional observations from a re-analysis of the deposited data

How the results depend on the processing

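Member calls of the 4 contrasts (days 5 to 14, 14 to 28, 5 to 28 and the difference between the steps) numbered 0, 0, 3 and 0. They were 1, 1, 5 and 0 with DESeq2 and 2, 2, 6 and 1 without the expression filter. The share of all genes called was counted only for the fit reported above. Whether the counts here and below moved more than those of all genes was therefore not tested. Between days 5 and 28 there were 6 calls with only the compared libraries, 1 at an adjusted p under 0.01 and 0 under the stringent rule. Leaving out 1 library at a time gave 0 to 2, 0 to 2, 0 to 6 and 0 to 1 calls. The first contrast had 2 without day 14 replicate 1, the second 1 without day 14 replicate 1 and 2 without replicate 2, and the last 1 without day 14 replicate 1. Between days 5 and 28 there was 1 call without day 5 replicate 1 or 2, 6 without either day 14 library and 0 without day 28 replicate 1. A day left with 1 library was assumed to vary like the others. The calls of other pathway genes (10, 0 and 20 over the 3 comparisons) were 16 and 4 in the first 2 with DESeq2, and 24 and 9 without the filter. The first had 5 with limma at either pseudocount. At an adjusted p under 0.01 there were 1 and 11 in the comparisons with day 5, and under the stringent rule 5 and 11. Left-out libraries gave 1 to 20, 0 to 14 and 9 to 26. The first had 1, 3 and 1 without day 5 replicates 1, 2 and 3 and 20 without day 14 replicate 1, the second 1 and 14 without day 14 replicates 1 and 2, and the third 12 without day 5 replicate 1 and 9 without day 28 replicate 1.

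With the replicate number as a replicate block, 1 member was called between days 5 and 28 (Tgfbr1, adjusted p = 0.0383, while Tgfb1 had 0.0945 and Tgfbi 0.0660), and other pathway genes numbered 1 and 12 in the comparisons with day 5. The block left 2 residual degrees of freedom in place of 4. Deviations of same-numbered libraries over 7556 genes correlated at 0.402 and 0.047 for days 5 and 14. They correlated at -0.146 for days 14 and 28, and at -0.042 and 0.044 for days 5 and 28. With 2 libraries each on days 14 and 28, these few values cannot decide whether same-numbered libraries were handled together. The labels do not say. With the day 28 numbers swapped, a pairing chosen after seeing the data, 1, 1 and 4 members and 10, 7 and 21 other pathway genes were called.

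Uncalled log2 fold changes near 0 changed sign as follows. Between days 5 and 14, Tgfbr1 was -0.023 with the block, -0.025 with the swapped block and -0.017 to 0.180 with left-out libraries, Tgfbr2 -0.14 to 0.21, Smad3 -0.560 to 0.027, Smad7 -0.013 to 0.310 and Acvrl1 -0.345 to 0.065. Between days 14 and 28, Smad3 ranged from -0.560 to 0.027, Smad7 from -0.058 to 0.419 and Skil from -0.066 to 0.216. Acvrl1 ranged from -0.116 to 0.215 between days 5 and 28. The cause of these changes was not tested. Precision is limited by 2 libraries each on days 14 and 28.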

Other observations

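Several pathway genes outside the naming rule were picked after their values were seen, and none was called by edgeR after Benjamini-Hochberg adjustment. Lrrc33, the myeloid counterpart of GARP that anchors latent TGF-beta on macrophages and microglia, was far more abundant than Lrrc32, at 104, 112 and 119 FPKM at day 5, 111 and 105 FPKM at day 14, and 81.0 and 92.1 FPKM at day 28. Its log2 fold change between days 5 and 28 was -0.35 (adjusted p = 0.0771). Tgfb3, another TGF-beta isoform, was at 3.02, 2.49 and 4.48 FPKM at day 5, 2.29 and 0.699 FPKM at day 14, and 0.260 and 1.24 FPKM at day 28 (log2 fold change -2.22, adjusted p = 0.0512). The activin type I receptor Acvr1b averaged 13.9, 11.1 and 11 FPKM on the 3 days, and the type II receptor Acvr2a 2.77, 2.67 and 2.75 FPKM, with log2 fold changes between days 5 and 28 of -0.33 (adjusted p = 0.141) and 0.00 (adjusted p = 0.993). Fst, which encodes the activin antagonist follistatin, was at 0.192 to 0.523 FPKM in all libraries.

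Expressed relative to Tgfb1, the FPKM of Inhba was 0.0908, 0.0880 and 0.0737 at day 5, 0.0595 and 0.0202 at day 14, and 0.181 and 0.192 at day 28, without overlap between the days. This ratio was chosen after the values were seen and was not tested.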
